A study of Rattus norvegicus with 6 samples.

Results

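The genes described here encode the machinery that stores neurotransmitter in synaptic vesicles and releases it at the nerve terminal: SNARE proteins, the calcium sensors that trigger them, vesicle membrane proteins, Rab3 GTPases, active zone scaffolds and 2 proteins of vesicle retrieval. They are a list of 42 genes given by symbol, of which 41 were found among the 30498 genes of the deposited tables; the complexin gene Cplx1 was not analysed here. They were measured in whole brains of newborn rats (Rattus norvegicus) with RNA sequencing of polyadenylated RNA, in 3 libraries from pups of control dams and 3 from pups of dams on a restricted caloric intake (CR), used to model fetal growth restriction. Pups of both groups came by Caesarean section, and their brains were dissected without delay. The labels give no strain, sex, degree of restriction or litter, and do not say whether each library came from its own pup, so the p-values speak only of the spread among these libraries, which may be technical. Levels are FPKM, the reads assigned to a gene per kilobase of its exons, scaled to the assigned reads of the library.

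A synaptic vesicle fuses when a SNARE protein of the vesicle, a synaptobrevin (Vamp genes), zips together with syntaxin and SNAP-25 of the plasma membrane. Synaptotagmins on the vesicle bind calcium and trigger this step, complexins clamp and assist it, and NSF with its SNAP adaptors then pulls the spent SNARE complex apart. Rab3, RIM and Munc13 proteins tether the vesicle and prepare it for fusion at the active zone. In the rodent brain most of these genes are switched on as neurons differentiate and continue to rise after birth as synapses form. Several steps are shared by related proteins that differ by region: synaptobrevin 1 and synaptotagmin 2, for example, are known as the main forms in many neurons of the brainstem and spinal cord, and synaptobrevin 2 and synaptotagmin 1 as those of the forebrain.

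Most of these genes were higher in CR. Of the 41 measured genes, all of which passed the filter on low values, 26 rose, 1 fell and 14 did not pass the threshold (limma on log2(FPKM + 1), Benjamini-Hochberg adjusted p under 0.05 over all 15247 tested genes). That is 65.9% of the list. The same threshold was passed by 33.9% of all tested genes, by 17.7% as higher and by 16.2% as lower. The list had a median log2 fold change (CR minus control) of 0.30, against 0.01 for all tested genes. In 28 genes every CR library was above every control library, in 3 every CR library was below, and in 10 the groups overlapped. Over all tested genes, 50.3% did not overlap: 26.1% had every CR library above and 24.3% every CR library below the control libraries. The listed genes were well expressed, with a median level of 21.0 FPKM over the 6 libraries against 7.57 FPKM for all tested genes. Among the 29 with a mean of at least 10 FPKM 21 rose and none fell, and of the 6447 tested genes at that level 43.7% passed, 21.3% as higher; that level was chosen after the values were seen. The count over all genes fell from 5173 to 3210 (21.1%) without CR replicate 2 and to 3308 (21.8%) without CR replicate 3, where the list kept 21 calls each time, all as higher.

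**Figure D1:**
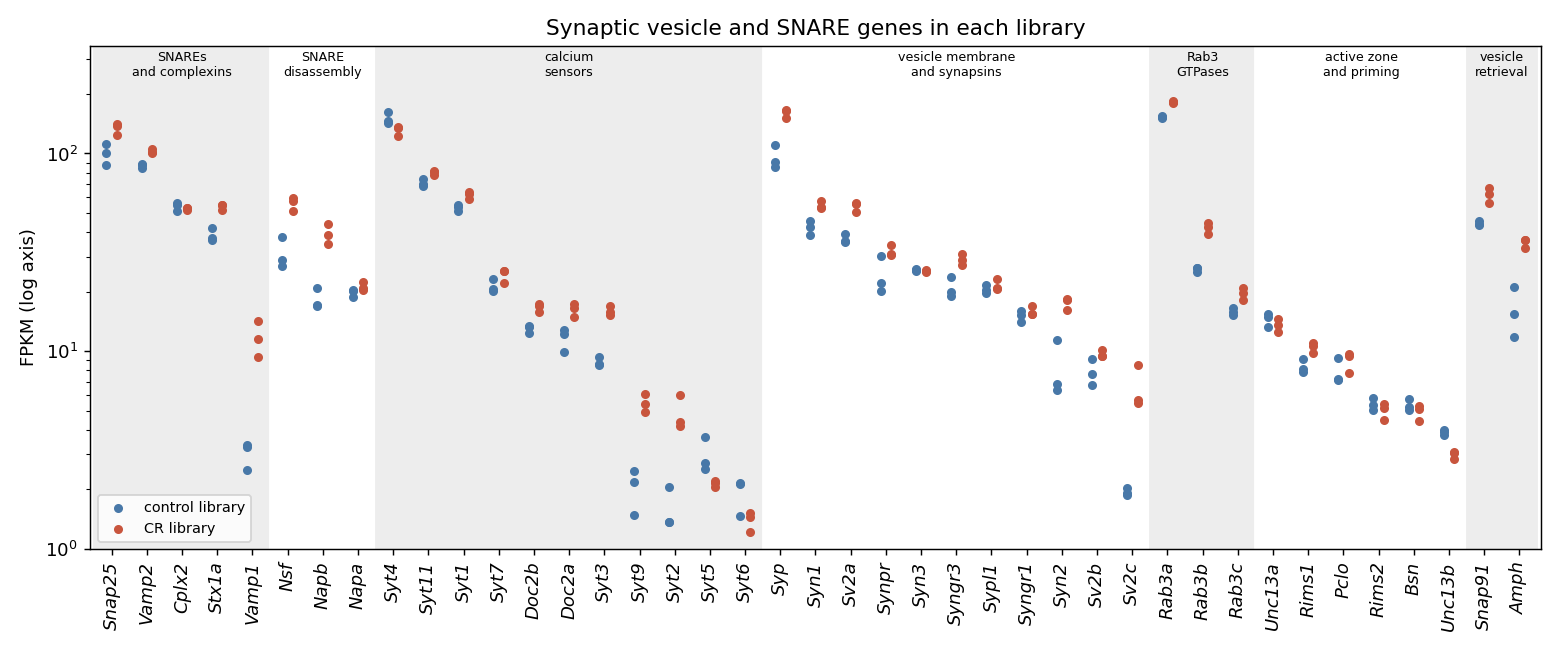
FPKM (log axis) of the 41 measured genes in each of the 6 libraries, grouped by role and ordered by mean level; blue points are control and red points CR libraries. Vamp1, Sv2c, Syt2 and Syt9 stand lowest in control among the genes that rose, and the genes of the active zone have groups that mostly overlap or lie close together.

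**Figure D2:**
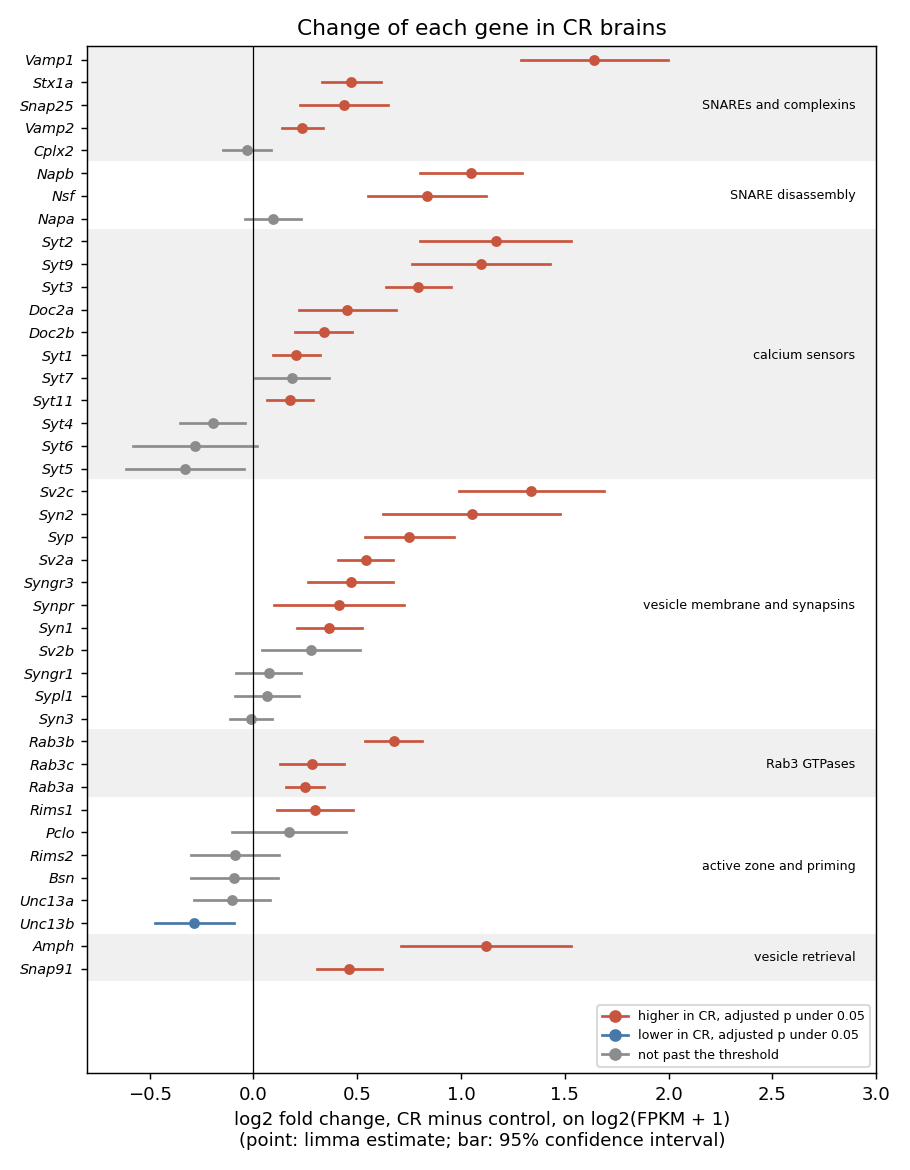
Log2 fold change of each gene, CR minus control on log2(FPKM + 1), as the limma estimate (point) with its 95% confidence interval (bar); red passed the threshold as higher, blue as lower, grey did not pass. Changes run from -0.33 for Syt5, which did not pass, to 1.64 for Vamp1.

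The libraries held 14030961 to 25734737 assigned reads, and the listed genes had 49 to 10942 reads each per library. RNA of Y-linked genes summed to 46.2 to 50.2 FPKM in control replicate 3 and CR replicates 1 and 3 and to at most 0.362 FPKM in the other libraries. All 6 libraries are labelled whole brain, and markers of 16 cell types and brain regions were summed in each. The 9 markers of the dorsal telencephalon (cortex and hippocampus) stood at 463 to 581 FPKM in control but only at 170.3 to 269 in CR, and the 10 of the ventral telencephalon at 158 to 197 and 115 to 136 FPKM. Of these, 9 of 9 and 9 of 10 genes were below control in every CR library. Markers of regions behind the telencephalon were higher in CR. The sum of the 4 of the thalamus was 3.23 to 19.5 FPKM in control against 74.3 to 109.6 in CR, that of the 9 of the hypothalamus 4.71 to 5.75 and 43.6 to 63.6, that of the 6 of the midbrain 0.605 to 1.09 and 20.3 to 25.3, and that of the 6 of the cerebellum 10.2 to 12.1 and 42.4 to 53.4 FPKM. The 10 markers of hindbrain and cord summed to 8.74 to 13.3 FPKM in control, to 21.7 and 21.4 in CR replicates 1 and 2 and to 65.6 in CR replicate 3, which stands apart there. Single genes were above control in every CR library in 4 of 4, 9 of 9, 6 of 6, 5 of 6 and 9 of 10 cases in these lists, in the order given. The midbrain genes Slc6a3, Pitx3, Pou4f1 and Pou4f2, the hypothalamic genes Oxt, Hcrt, Sim1 and Otp, the cerebellar gene En2 and the hindbrain and cord genes Fev, Hoxb3, Hoxa2, Hoxb5 and Hoxc4 each had no read in at least 1 library. Sums of markers of astrocytes (204 to 245 and 346 to 383 FPKM), microglia (27.1 to 36.2 and 45.2 to 52.0) and the oligodendrocyte lineage (49.5 to 57.2 and 66.2 to 77.1) were also higher in every CR library. Single genes were above control in every CR library in 7 of 9, 6 of 8 and 5 of 9 cases, in that order. The 5 pituitary markers (Gh1, Prl, Cga, Pou1f1 and Tshb), each with no read in at least 1 library, summed to at most 0.292 FPKM in control libraries and to between 2.80 and 5.83 in CR libraries, and meningeal markers to 37.6 to 78.7 and 79.0 to 94.5 FPKM. Sums of progenitor, endothelial and pericyte, and choroid plexus markers overlapped between the groups. The 10 pan-neuronal markers lay between 4149 and 4717 FPKM in control and between 4625 and 4821 in CR when summed, so the groups overlapped and the mean was 1.07-fold higher. Of the 10, 4 rose and 2 fell, from Dcx (log2 fold change -0.29) to Ina (0.57). In whole brain RNA, a different number of cells of a type and a different amount of RNA per cell cannot be told apart. Neither can be told apart here from a difference in which regions went into a library. The part of regional or cellular makeup in any change below was not tested.

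**Figure D3:**
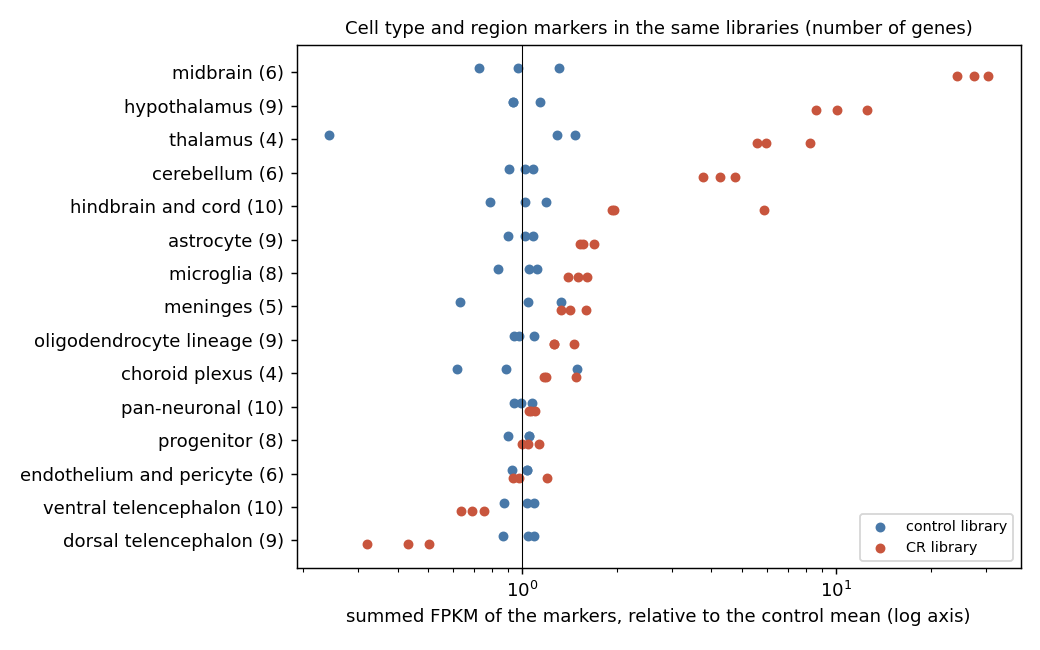
Summed FPKM of marker genes in each library relative to the control mean (log axis), with the number of genes per list; blue points are control and red points CR libraries. Pan-neuronal markers lie near 1 in both groups, dorsal telencephalic markers lie below it in CR and midbrain markers far above it; the pituitary list, at or near 0 in control, is not drawn.

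All 4 measured SNARE genes of the 42-gene list rose, and the complexin gene grouped with them did not pass. The largest change of the whole list was in Vamp1, synaptobrevin 1 (ENSRNOG00000019219, mRatBN7.2 chromosome 4 from 158012663 to 158019349). Control replicates 1, 2 and 3 had 3.34, 3.27 and 2.51 FPKM of it and CR replicates 1, 2 and 3 had 9.32, 11.5 and 14.2 FPKM; libraries are given in this order throughout. The lowest CR library was thus well above the highest control library. The group means differed 3.85-fold, with a log2 fold change of 1.64 (SE 0.152, adjusted p = 0.000632). CR replicate 3 was the highest in Vamp1, and within the CR group it was the highest in 23 of the 41 genes. It had the highest sum of hindbrain and cord markers, but the lowest midbrain and cerebellar sums of the CR group (20.3 and 42.4 FPKM). Vamp2, synaptobrevin 2 (ENSRNOG00000006989, chromosome 10 from 53793923 to 53797809), was the more abundant form in every library. It was at 87.5, 88.4 and 84.9 FPKM in control and 100.2, 106 and 102 FPKM in CR, 1.18-fold higher (log2 fold change 0.24, SE 0.0422, adjusted p = 0.00546). Within a library, Vamp1 amounted to 2.95% to 3.81% of the Vamp2 level in control and to 9.31% to 14.0% in CR.

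Snap25, the most abundant SNARE gene, encodes the plasma membrane partner that supplies a pair of helices to the complex. It was at 100.2, 87.4 and 111 FPKM in control and 124, 138 and 142 FPKM in CR (log2 fold change 0.44, SE 0.0914, adjusted p = 0.00997). Stx1a, syntaxin 1A, was at 37.4, 36.4 and 41.9 FPKM in control and 51.9, 54.6 and 54.9 FPKM in CR (0.47, SE 0.0614, adjusted p = 0.00183). In neither gene did the groups overlap. The complexin gene Cplx2 was as high in one group as in the other, with 51.0 to 56.2 FPKM in control and 52.1 to 53.1 FPKM in CR. Its log2 fold change was -0.03, with a 95% confidence interval from -0.14 to 0.08 (adjusted p = 0.654).

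Of the 3 genes that recycle the SNARE complex 2 rose and 1 did not pass. Nsf, the ATPase that takes the complex apart, was at 27.1, 28.8 and 37.9 FPKM in control and 51.0, 57.4 and 59.7 FPKM in CR, 1.79-fold higher (log2 fold change 0.84, SE 0.122, adjusted p = 0.00266). Napb, the brain-enriched adaptor beta-SNAP, was at 17.2, 16.9 and 21.0 FPKM in control and 34.6, 43.8 and 38.8 FPKM in CR (1.05, SE 0.106, adjusted p = 0.000848). Napa, the widely expressed adaptor alpha-SNAP, was at 18.8 to 20.3 FPKM in control and 20.4 to 22.3 FPKM in CR and did not pass (0.09, 95% confidence interval -0.04 to 0.23, adjusted p = 0.248). Napb was at 84.6% to 104% of the Napa level in control and at 169.5% to 196% in CR, so that the beta form exceeded the alpha form in every CR library but in only 1 control library.

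The promoters of the synaptobrevin pair and of the synaptotagmins 1 and 2 are shown because these pairs hold the largest shifts between related genes. They are the 250 bases before the RefSeq start on assembly GRCr8, 5′ to 3′ on the gene's strand, with capitals for a cyclic AMP response element (TGACGTCA, the same on both strands) or a GC box (GGGCGG on either strand). The windows are chr4:159698644-159698893 on the plus strand for Vamp1, chr10:54292539-54292788 on the plus strand for Vamp2, chr7:46244214-46244463 on the minus strand for Syt1 and chr13:48736872-48737121 on the plus strand for Syt2.
Vamp1: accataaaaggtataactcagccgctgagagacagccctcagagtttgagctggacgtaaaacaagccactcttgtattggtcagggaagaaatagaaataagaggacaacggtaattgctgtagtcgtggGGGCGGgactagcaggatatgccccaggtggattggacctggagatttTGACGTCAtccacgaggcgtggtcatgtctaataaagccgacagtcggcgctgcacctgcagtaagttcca
Vamp2: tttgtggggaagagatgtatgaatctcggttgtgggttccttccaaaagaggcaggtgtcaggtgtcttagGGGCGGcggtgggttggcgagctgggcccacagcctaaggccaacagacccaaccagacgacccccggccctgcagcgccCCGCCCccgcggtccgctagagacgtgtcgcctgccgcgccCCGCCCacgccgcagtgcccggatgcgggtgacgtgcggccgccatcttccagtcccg
Syt1: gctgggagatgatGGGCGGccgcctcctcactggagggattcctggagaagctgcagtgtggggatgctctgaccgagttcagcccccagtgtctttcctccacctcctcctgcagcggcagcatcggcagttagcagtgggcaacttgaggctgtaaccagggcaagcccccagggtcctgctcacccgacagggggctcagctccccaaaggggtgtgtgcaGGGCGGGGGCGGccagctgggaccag
Syt2: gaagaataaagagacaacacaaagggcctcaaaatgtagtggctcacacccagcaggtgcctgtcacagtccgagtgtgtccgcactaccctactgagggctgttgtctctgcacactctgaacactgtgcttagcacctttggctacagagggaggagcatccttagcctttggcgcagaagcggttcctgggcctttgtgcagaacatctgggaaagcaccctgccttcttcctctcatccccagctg
The Vamp1 window held 1 cyclic AMP response element, which begins 71 bases before the start, and 1 GC box. The Vamp2 window held 3 GC boxes and the Syt1 window 3, and the Syt2 window held neither motif. Over the whole window of the RefSeq entries (250 before and 50 after the start), the ratio of observed to expected CpG was 0.819 for Vamp1 and 0.860 for Vamp2 but 0.258 for Syt1 and 0.185 for Syt2. The RefSeq table had an entry for 30 of the 41 measured genes. A cyclic AMP response element was in 3 of these 30 (Vamp1, Syn1 and Napa), in 3.22% of the entries of 10096 tested genes and in 1.91% of all 27457 entries. A GC box was in 24 of the 30, in 63.1% of those of tested genes and in 34.9% of all. A TATA box (TATAAA on either strand) was in none of the 30, in 6.48% of those of tested genes and in 14.3% of all. Of the 3 genes with the response element, Vamp1 and Syn1 rose and Napa did not pass. These matches are descriptions of letters in a window, and the start used in these brains was not measured.

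Of the 11 synaptotagmin and Doc2 genes, grouped here as calcium sensors, 7 rose, none fell and 4 did not pass. The synaptotagmins 1, 2 and 9 are the fast sensors of vesicle release, and they rose by unequal amounts. Syt1 was at 55.1, 51.4 and 53.4 FPKM in control and 59.1, 62.4 and 63.6 FPKM in CR (log2 fold change 0.21, SE 0.0484, adjusted p = 0.0150). Leaving out CR replicate 2 or CR replicate 3 ended that call (adjusted p = 0.0575 and 0.0636). Syt2 was at 1.37, 2.06 and 1.37 FPKM in control and 4.36, 4.19 and 6.0 FPKM in CR (1.17, SE 0.156, adjusted p = 0.00200). Syt9 was at 2.48, 1.48 and 2.18 FPKM in control and 4.90, 6.09 and 5.40 FPKM in CR (1.10, SE 0.142, adjusted p = 0.00182). Both minor sensors were above every control library in every CR library, yet Syt1 remained by far the most abundant of the 3. Syt2 was at 2.49% to 4.01% of the Syt1 level in control and 6.71% to 9.43% in CR, and Syt9 at 2.87% to 4.5% and 8.29% to 9.77%. Of the exons of Syt1, 19.0% overlap another annotated gene on the same strand, which was at 0.357 FPKM on average in control and 0.288 in CR.

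Syt3, a high-affinity calcium sensor, was at 8.56, 8.50 and 9.29 FPKM in control and 15.2, 17.0 and 15.7 FPKM in CR, a 1.82-fold difference (log2 fold change 0.79, SE 0.0668, adjusted p = 0.000525). Doc2a and Doc2b, soluble sensors of the Doc2 family, rose as well. Doc2a went from 11.7 ± 1.53 to 16.3 ± 1.21 FPKM (mean ± SD, n = 3 per group) and Doc2b from 13.0 ± 0.512 to 16.7 ± 0.733 FPKM. Doc2g, the third gene of that family and not one of the 42, had overlapping groups and did not pass (log2 fold change -0.16, adjusted p = 0.481). The exons of Doc2a overlap those of Ino80e on the opposite strand over 38.7% of their length, and the sources used here do not say how strand was counted. Syt4 and Syt11, synaptotagmins that do not act as fast sensors, were the most abundant synaptotagmin genes. Syt4 was at 147, 163 and 142 FPKM in control and 137, 122 and 135 FPKM in CR. Every CR value of Syt4 was below every control value, but the difference did not pass (log2 fold change -0.20, SE 0.0672, adjusted p = 0.0569). Limma-voom on the reads and quantile normalization brought it past the threshold (adjusted p = 0.0328 and 0.0152). Syt11 was at 71.0 ± 3.16 FPKM in control and 80.2 ± 2.15 FPKM in CR (0.18, SE 0.0480, adjusted p = 0.0266). Its call was lost in 7 of 17 alternatives, with adjusted p up to 0.0958. Syt7, the sensor of slow and asynchronous release, was at 20.1 to 23.1 and 22.1 to 25.5 FPKM and did not pass (adjusted p = 0.0982). Syt5 and Syt6 were low, at 1.21 to 3.66 FPKM in all libraries, and did not pass (adjusted p = 0.0728 and 0.130). The exons of Syt5 overlap those of Ptprh on the same strand over 92.2% of their length, so reads of the 2 genes may not have been told apart.

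Of the 11 genes of vesicle membrane proteins and synapsins, 7 rose, none fell and 4 did not pass. Syp, synaptophysin, a classic marker of presynaptic terminals and the most abundant of them, was at 90.9, 85.9 and 110.2 FPKM in control and 152, 165 and 167 FPKM in CR. The lowest CR library was clearly above the highest control library (1.68-fold, log2 fold change 0.75, SE 0.0916, adjusted p = 0.00152). The synapsins, which tether vesicles to one another in the reserve pool, split by gene. Syn2 was at 6.84, 6.37 and 11.3 FPKM in control and 16.1, 18.2 and 18.3 FPKM in CR (1.05, SE 0.183, adjusted p = 0.00497), with control replicate 3 well above the other control libraries. Syn1 rose from 42.2 ± 3.39 to 54.6 ± 2.53 FPKM (0.36, SE 0.0672, adjusted p = 0.00603). Syn3, the synapsin of early neuronal differentiation, was at 25.5 to 25.9 FPKM in control and 25.2 to 25.8 FPKM in CR, with a log2 fold change of -0.01 and a 95% confidence interval from -0.11 to 0.09. Syn2 overlaps Timp4 on the opposite strand over 6.69% of its exon length, and Timp4 was at 0.660 FPKM on average in control and 4.38 in CR.

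The 3 SV2 genes encode transporter-like glycoproteins found on vesicles throughout the nervous system. Sv2a, the widespread form, rose from 36.9 ± 1.79 to 54.1 ± 2.88 FPKM (0.54 on the log2 scale, SE 0.0577, adjusted p = 0.00102). Sv2c, a form with a restricted distribution that includes the basal ganglia and brainstem, was at 1.88, 2.03 and 1.91 FPKM in control and 5.68, 5.46 and 8.48 FPKM in CR. The control libraries lay close together, and CR replicate 3 was the highest, as in most genes of the list (3.37-fold, 1.34, SE 0.150, adjusted p = 0.00119). Sv2b was at 6.77 to 9.11 and 9.42 to 10.1 FPKM and did not pass (0.28, adjusted p = 0.0697). Sv2b was at 18.7% to 23.4% of the Sv2a level in control and at 16.8% to 18.5% in CR, whereas Sv2c was at 4.89% to 5.62% and 9.83% to 15.1%.

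The remaining members of this group are relatives of synaptophysin. Syngr3, synaptogyrin 3, rose from 20.8 ± 2.45 to 29.1 ± 1.96 FPKM (adjusted p = 0.00661). Synpr, synaptoporin, was at 30.2, 22.1 and 20.2 FPKM in control and 30.9, 34.5 and 30.8 FPKM in CR; it passed narrowly (adjusted p = 0.0485), and the call was lost in 9 of 17 alternatives, with adjusted p up to 0.149. Syngr1, synaptogyrin 1, and Sypl1, a synaptophysin-like gene that is expressed beyond neurons, did not pass, with log2 fold changes of 0.07 for each and 95% confidence intervals that end at 0.23 and 0.22. Of the exons of Syngr3, 11.3% overlap Zfp598 on the opposite strand, which was at 13.9 FPKM on average in control and 11.4 in CR.

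All 3 Rab3 genes rose. Rab3a, the main vesicle GTPase of the forebrain and the most abundant gene of the list in control on average, was at 152, 156 and 152 FPKM in control and 179.6, 181 and 185 FPKM in CR (log2 fold change 0.25, SE 0.0386, adjusted p = 0.00330). Rab3b was at 26.5, 25 and 26.3 FPKM in control and 39.2, 44.5 and 42.3 FPKM in CR, 1.62-fold higher (0.68, SE 0.0582, adjusted p = 0.000533). Rab3c was at 15.9, 16.6 and 15.3 FPKM in control and 18.1, 20.9 and 19.8 FPKM in CR (0.28, SE 0.0666, adjusted p = 0.0154). The groups did not overlap in any of these genes. Rab3c no longer passed when CR replicate 2 or CR replicate 3 was left out (adjusted p = 0.0601 and 0.0582).

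The genes of the active zone and of vesicle priming had the lowest median change of the 7 roles: 1 of 6 rose, 1 fell and 4 did not pass, with a median log2 fold change of -0.09. Unc13a, which encodes Munc13-1, the main priming factor of glutamate synapses and the most abundant of the 6, was at 15.4, 13.3 and 14.9 FPKM in control and 12.5, 13.5 and 14.5 FPKM in CR, and the groups overlapped (adjusted p = 0.355). Unc13b, Munc13-2, was at 3.99, 3.89 and 3.75 FPKM in control and 3.10, 2.83 and 3.06 FPKM in CR. It was the 1 gene of the list that fell, by 0.29 on the log2 scale (SE 0.0815, adjusted p = 0.0307). That call was lost in 8 of 17 alternatives, among them the fit with the replicate number as a block (adjusted p = 0.0761) and leaving out any library but control replicate 3, with adjusted p up to 0.110. Rims1, which encodes the scaffold RIM1, was at 8.08, 7.85 and 9.13 FPKM in control and 9.81, 10.6 and 11 FPKM in CR (0.30, SE 0.0783, adjusted p = 0.0230). Without control replicate 1 or 2 or CR replicate 2 or 3 it no longer passed (adjusted p = 0.0621, 0.0666, 0.0789 and 0.0911). Rims2 was at 5.01 to 5.81 and 4.51 to 5.37 FPKM. The giant scaffold genes Bsn (bassoon, 5.02 to 5.74 and 4.44 to 5.31 FPKM) and Pclo (piccolo, 7.12 to 9.19 and 7.71 to 9.69 FPKM) had overlapping groups as well. The 95% confidence intervals of Unc13a, Rims2 and Bsn ended at 0.08, 0.12 and 0.12 on the log2 scale, and that of Pclo at 0.44.

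Both genes of vesicle retrieval rose. Amph, amphiphysin, which brings dynamin to the neck of budding vesicles, was at 21.2, 15.4 and 11.8 FPKM in control and 33.1, 36.5 and 36.7 FPKM in CR, 2.19-fold higher (log2 fold change 1.12, SE 0.175, adjusted p = 0.00333). After Syn2 it had the largest relative spread of the list in control, and the CR libraries were all above the highest control library. Snap91, the neuronal clathrin adaptor AP180, was at 45.7, 43.6 and 44.0 FPKM in control and 56.0, 62.5 and 66.8 FPKM in CR (0.46, SE 0.0665, adjusted p = 0.00251).

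Ordered by level, the list was headed by Rab3a (153 ± 2.07 FPKM) and Syt4 (151 ± 10.9) in control, which did not differ beyond their spread, followed by Snap25 (99.7 ± 12), Syp (95.7 ± 12.8) and Vamp2 (86.9 ± 1.81), whose ranges also overlapped. In CR Rab3a (182 ± 2.89 FPKM) was followed by Syp (161 ± 8.20), Snap25 (135 ± 9.22) and Syt4 (131 ± 7.95), and Syp was above Syt4 in every CR library. At the other end were Syt2 (1.60 ± 0.401), Syt6 (1.92 ± 0.388), Sv2c (1.94 ± 0.0831) and Syt9 (2.05 ± 0.514 FPKM) in control, with overlapping ranges, and Syt6 and Syt5 in CR (1.39 ± 0.158 and 2.14 ± 0.0730 FPKM). Within the CR group, replicate 1 was the lowest library in 33 of the 41 genes and replicate 3 the highest in 23. Dorsal telencephalic markers were highest in replicate 1, at 269 FPKM, but ventral ones in replicate 3 (136 FPKM, against 124 in replicate 1). Whether the order of the libraries follows any marker list was not tested. Within the control group, replicate 2 was the lowest in 22 genes and replicate 3 the highest in 19.

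Related genes can be compared per length within the same library. Of 17 ratios of related genes, 9 were higher in every CR library than in every control library, 5 were lower and 3 overlapped. Of all tested genes taken singly, 50.3% did not overlap between the groups. The share among ratios of other genes was not worked out. With 3 libraries against 3 an exact two-sided permutation test cannot go below p = 0.1, which each of the 14 ratios reached (0.121 after Benjamini-Hochberg adjustment over the 17 ratios), so none passes 0.05. Some ratios share a denominator, and the 17 are not independent. The largest differences, on the log2 scale of (FPKM + 0.1), were 1.66 for Vamp1 over Vamp2, 1.34 for Syt2 over Syt1, 1.19 for Syt9 over Syt1, 1.13 for Sv2c over Sv2a and 0.99 for Napb over Napa. In the first 4 the scarcer gene gained on the abundant one. Rab3b gained on Rab3a (0.44), Syn2 on Syn1 (0.76), Syngr3 on Syngr1 (0.41) and Pclo on Bsn (0.30). In the other direction Rims2 over Rims1 differed by -0.43, Syn3 over Syn1 by -0.38, Syt4 over Syt11 by -0.38, Unc13b over Unc13a by -0.25 and Sv2b over Sv2a by -0.24. Of these, the Rims ratio had close values within each group, with Rims2 at 63.7% to 66.0% of Rims1 in control and 45.9% to 48.7% in CR. Rab3c over Rab3a, Doc2b over Doc2a and Synpr over Syp overlapped between the groups (exact permutation p = 0.6, 0.5 and 0.4).

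**Figure D4:**
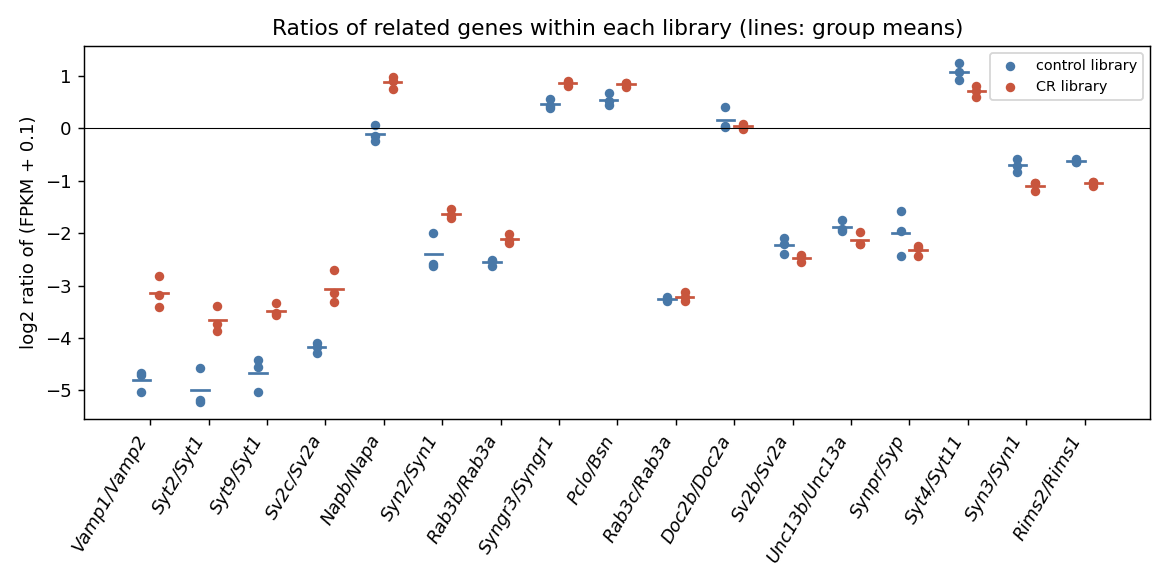
Log2 ratio of the levels of related genes in each library (FPKM + 0.1), ordered by the difference between groups; points are libraries, blue control and red CR, and short lines are group means. The 4 ratios at the left, led by Vamp1 over Vamp2, were the lowest in control and differed most between the groups; Rims2 over Rims1 and Syn3 over Syn1 at the right were lower in every CR library.

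Other genes of the vesicle cycle, taken from a list of 95 of which 87 were tested, also had more members higher than lower: 44 rose, 3 fell and 40 did not pass, with a median log2 fold change of 0.19. That is 54.0% called, where 33.9% of all tested genes were called and 17.7% were called higher. By step, the share called was 29.4% for SNAREs and partners, 37.5% for calcium sensors and 25% for Rab3 relatives. All calls in these groups were higher, and their shares lie near the 33.9% called in either direction but above the 17.7% called higher. The share called was 53.8% for active zone and 55% for retrieval genes. The vesicle proton pump, the V-ATPase whose gradient drives transmitter loading, had 10 of 10 tested subunit genes higher, from Atp6v1d (0.18, adjusted p = 0.0169) to Atp6v1g2 (0.62, adjusted p = 0.000532). The Atp6v1d call was lost without CR replicate 1, without CR replicate 2 and without the trend in limma, with adjusted p up to 0.0635. Atp6v1g2, a neuronal subunit, was at 51.7 ± 1.82 FPKM in control and 80.2 ± 4.33 in CR, and Atp6v1b2 at 59.0 ± 1.23 and 81.6 ± 2.28. The vesicular transmitter transporters moved apart: Slc17a7 (VGLUT1, the glutamate transporter of cortical neurons) fell from 25.5 ± 5.23 to 14.1 ± 2.06 FPKM (-0.80, adjusted p = 0.00848), while Slc17a6 (VGLUT2, that of the thalamus, hypothalamus and brainstem) rose from 13.4 ± 2.83 to 51.6 ± 7.95 FPKM (1.87, adjusted p = 0.000471). Slc17a8 (VGLUT3) rose from 0.521 ± 0.120 to 3.54 ± 0.380 FPKM, and the GABA and glycine transporter gene Slc32a1 and the monoamine transporter gene Slc18a2 rose as well (0.68 and 1.55 on the log2 scale).

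Among SNAREs and their binding partners 5 of 17 tested rose and none fell. The largest changes of that group were in Stxbp6 (0.73) and Vamp8 (0.73), a SNARE gene of endosomes and secretory cells. The plasma membrane and endosomal SNARE genes Stx2, Stx3, Stx4, Vamp3, Vamp4, Vamp7, Snap29 and Snap47 did not pass. The third SNAP adaptor gene, Napg, rose from 19.3 ± 1.86 to 26.4 ± 1.18 FPKM. Further genes grouped with the calcium sensors had 3 of 8 higher, led by Syt13 and Syt17 (log2 fold change 1.05). Syt13, a synaptotagmin that does not bind calcium, was at 16.7 ± 3.53 FPKM in control and 49.3 ± 6.72 FPKM in CR (1.52, adjusted p = 0.000720).

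Of 13 tested active zone genes outside the 42, 7 rose and none fell, with a median log2 fold change of 0.32. The largest were Unc13c, which encodes Munc13-3 of cerebellar neurons (1.03 ± 0.312 and 3.28 ± 0.476 FPKM; 1.08, adjusted p = 0.00191), and Rims3 (7.03 ± 0.704 and 14.5 ± 1.05 FPKM; 0.95). Whether the 2 sets of active zone genes differ was not tested. Of 20 genes of clathrin-mediated retrieval 9 rose, 2 fell and 9 did not pass. Only Dnm1, Eps15 and Cltb, a clathrin light chain gene, were called higher in each of the 17 alternatives. The other 6 (the clathrin heavy chain gene Cltc, the adaptor genes Ap2a1, Ap2a2 and Ap2m1, Bin1 and Necap1) were lost both without CR replicate 2 and without CR replicate 3, which left 3 higher each time, and without control replicate 1, control replicate 2 or CR replicate 1 there were 5. The number higher was also 5 with the replicate block or median-ratio factors, 4 with no filter or with the Y-linked term, and 3 without the trend. Dnm1, dynamin 1, the neuronal GTPase that cuts vesicles from the membrane, rose from 29.7 ± 3.78 to 52.6 ± 3.49 FPKM (0.81, adjusted p = 0.00123) and Eps15 from 16 ± 2.33 to 24.2 ± 0.255 FPKM. The scaffold gene Itsn1 fell from 16.2 ± 0.362 to 12.1 ± 0.773 FPKM (-0.40, adjusted p = 0.00328), and Picalm, the widely expressed relative of Snap91, fell by 0.27 (adjusted p = 0.0286), a call lost in 6 of 17 alternatives with adjusted p up to 0.101. Of Rab3 relatives and regulators 2 of 8 rose, Rab27b (2.53 ± 0.542 and 6.92 ± 0.366 FPKM) and Rab3d (0.39, adjusted p = 0.0332), a call that ended without any 1 of the CR libraries and when low genes were kept in (adjusted p up to 0.0946). Of 5 further vesicle membrane genes 3 rose: Scamp1 (0.38), Dnajc5 (0.22), which encodes cysteine string protein, and Svop (0.19). Svop no longer passed when CR replicate 3 was left out (adjusted p = 0.0528).

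**Figure D5:**
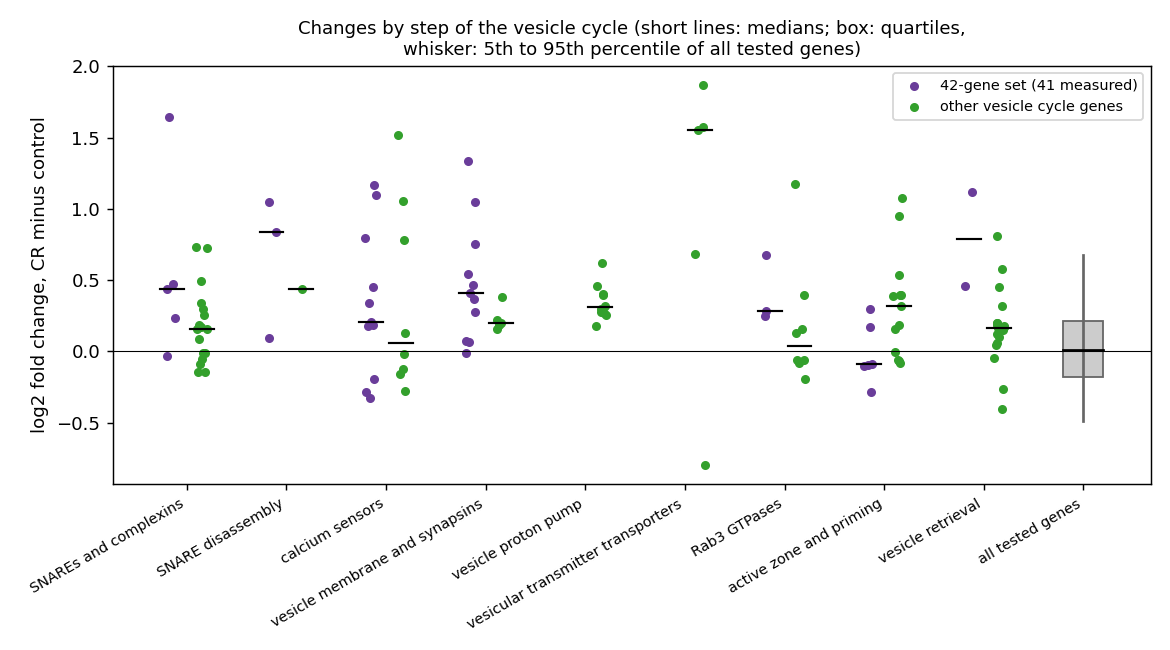
Log2 fold changes (CR minus control) of the 41 measured genes of the 42-gene list (purple) and of 87 other vesicle cycle genes (green), by step of the cycle, with medians as short lines; the box at the right gives the quartiles and the whisker the 5th to 95th percentile of all 15247 tested genes. All proton pump genes lie above 0, the transmitter transporters spread from -0.80 to 1.87, and the active zone genes of the list have a median of -0.09.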

How the data were processed

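Brain RNA was compared in 3 control and 3 CR libraries, grouped by the sample titles. The deposited FPKM were made by the authors and, per the file headers, come with an exon length per Ensembl gene. Per the submitters' processing notes, featureCounts 2.0.1, STAR 2.7.10a, cutadapt 1.16, Trimmomatic 0.36 and Trim Galore 0.4.4 were used with build mRatBN7.2; roles and settings are not stated there. FPKM times length gave whole multiples (within 0.05) of the worth of 1 read for 100% of the values, which gives the reads and the depth; 3 reads on 1 kb of exon are worth 0.117 to 0.214 FPKM, for counting error only.

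limma 3.58.1 in R 4.3.3, tested on simulated data, was fitted to log2(FPKM + 1) of the genes whose mean was at least 0.5 FPKM, with group as the only term and a trend in the prior variance, and tested two-sided. Log2 fold changes are on this scale and so understate changes of low genes. A fold divides the mean FPKM of CR by that of control. Within each group, libraries differed beyond counting noise (mean chi-square per gene 6.63 to 15.6, where 1 is noise alone). Promoters came from RefSeq on GRCr8, matched by symbol.

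The genes, roles, markers and ratios were chosen with earlier results of these data known. Each library is given for up to 3 called genes per role by size of change, the most abundant gene of each role and the genes of the 3 largest ratio differences, and for some further genes. Of the other vesicle cycle genes, the rule named up to 2 higher and 2 lower per role with groups that do not overlap, and a pair of others not reported here; further ones were named after their values were seen.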

Additional observations from a re-analysis of the deposited data

How the results depend on the processing

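Among the 17 alternatives (pseudocounts of 0.1 and 0.5, no filter or a mean of 2 FPKM, median-ratio factors, quantile normalization, limma without a trend or robust, limma-voom on reads, a term for Y-linked RNA, the replicate block, and leaving out each of the 6 libraries), no gene of the list changed sign. The list held 21 to 30 calls against 27, and the other vesicle cycle genes 37 to 52 against 47. For the ratios, with pseudocounts of 1 or none and without each library, 13 to 15 did not overlap against 14; Rab3c over Rab3a, whose groups overlap, ranged from -0.0025 to 0.0922 without 1 library. Of the 27 calls 21 were made under every alternative; those of Rab3c, Rims1, Synpr, Syt1, Syt11 and Unc13b were lost in some. Syt4, Syt6 and Sv2b, not among the 27, passed in 4, 2 and 3 alternatives. With the replicate block 26 listed genes passed, all as higher, and 4445 genes in all; it ended the call of Unc13b and of no other listed gene. The numbers are not taken as pairs, since deviations of same-numbered libraries correlated only weakly (0.0245, 0.0198 and 0.0454). Correlations between differently numbered libraries were all lower than these, from -0.0428 to 0.01655. Over all genes, leaving out 1 library gave 3210 to 5042 calls against 5173. The cause of these differences was not tested. Low genes are the least precise, with as few as 49 reads in a library.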
